A study of Homo sapiens with 9 samples.

Results

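The serum course of control H460 cells comprised 3 of the 9 RNA-seq libraries of the series, 1 each at 0, 8 and 16 h. NCI-H460 is a large cell lung cancer line that the labels trace to a pleural effusion, and the labels give its genotype as RUNX3 inactivation. The control line, called H460-vec in the study, has no RUNX3 construct and was labelled a tamoxifen-driven stable line, like the lines that express RUNX3 fused to ERT2. All lines were kept without serum for 24 h. The 0 h library was taken at the end of starvation and was labelled control. The study describes 10% serum with or without 1 µM 4-hydroxytamoxifen (4-OHT). The 8 h and 16 h libraries, labelled TAM, were read as serum with 4-OHT. The other 6 libraries were from ERT2-RUNX3 cells and from ERT2-RUNX3-K94/171R cells, in which lysine is replaced by arginine at both positions, at the same times. On this reading of the labels, no H460-vec library received serum without 4-OHT or 4-OHT without serum, so the responses to them cannot be told apart.

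The members were the genes of the shared H460-vec and ERT2-RUNX3 table that reached an FPKM (fragments mapped to a gene, scaled by its length and by the size of the library) of 1 in at least 1 of the 3 H460-vec libraries. These were 11687 of 24331 genes. The table lists genes by identifiers without symbols, and a symbol was at hand for 1145 of them, of which 580 passed the filter. Of these, 569 could be placed on GRCh37 (hg19), all 569 on the plus strand of chromosome 1. The named genes are therefore a sample by position and not by function, and genes elsewhere, RUNX3 included, were not analysed here by name. A change is the log2 ratio of the FPKM at 8 or 16 h to that at 0 h, with 0.05 added to both. With 1 library per time no difference has a replicate check, and no p-value was computed. The 8 h and 16 h changes share the 0 h library.

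Cells deprived of serum leave the division cycle or slow in it, and serum returns growth factors and lipids to them. In most normal cells it then starts immediate-early genes within the first hour, followed by genes of metabolism, ribosome production, DNA replication and mitosis. H460 cells carry an activated K-RAS, which signals along the same route as growth factors. 4-OHT is the ligand that moves ERT2 fusion proteins into the nucleus, and H460-vec has no such fusion. In the sterol pathway, cells that are short of sterols switch on the genes of sterol synthesis.

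Of 6 epithelial markers with a symbol 2 passed the filter, and markers without a symbol could not be checked, so epithelial identity was not assessed. Among the epithelial markers, SFN (stratifin) was listed at 55.6, 88.6 and 58.5 FPKM at 0, 8 and 16 h, and RAB25 at 0 in all 3. ELF3, TSPAN1 and CGN did not reach 1 FPKM. None of 6 blood cell markers exceeded 0.150 FPKM, all 3 endothelial markers were listed at 0 throughout, and none of 5 keratinizing markers exceeded 0.136. Of 4 fibroblast markers only OLFML3 passed the filter, with 2.36, 1.57 and 1.87 FPKM. The FPKM sums of the 3 libraries were 595679, 590682 and 641519, and the 50 most abundant genes took 26.7%, 26.1% and 28.4% of them. FPKM are shares of a library, so a change in RNA per cell and a change in the mix of cells cannot be told apart from them.

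Most genes stayed near their starved level. At 8 h 87.6% and at 16 h 83.4% of the 11687 genes lay within 0.5 of no change on the log2 scale, and the median change was 0.0033 and 0.02. Past a log2 change of 1, 147 genes (1.26%) were higher and 105 (0.898%) lower at 8 h, 2.16% in either direction. At 16 h 288 genes (2.46%) were higher and 82 (0.702%) lower, 3.17% in either direction. With the libraries scaled to the same FPKM sum, the median at 16 h moved by -0.11 and the 16 h counts became 226 higher and 108 lower, so that the share of higher genes was 67.7% instead of 77.8%. Between 8 and 16 h, when both libraries had serum and 4-OHT, 184 genes (1.57%) were higher and 82 (0.702%) lower at 16 h.

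The starved libraries of H460-vec and ERT2-RUNX3, which had neither serum nor 4-OHT, differed past 1 or 2 in more genes than either pair of libraries compared with 0 h in H460-vec, although 88.7% of genes lay within 0.5 of no change between them. Past 1, 190 of the same genes were higher and 268 lower in starved ERT2-RUNX3 cells, 3.92% in either direction. The filter used the H460-vec libraries only, so genes that reached 1 FPKM in ERT2-RUNX3 cells alone were left out. The balance of higher and lower genes is therefore not an even comparison of the lines. Past 2 there were 140 such genes (1.20%). In H460-vec 71 genes were past 2 at 8 h (0.608%), 46 higher (0.394%) and 25 lower (0.214%), and 85 at 16 h (0.727%), 58 higher (0.496%) and 27 lower (0.231%). The line and the library cannot be told apart in this comparison, and it gives the only measure in these data of how far 2 unstimulated libraries lie from each other.

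Many of the largest changes came from genes listed at exactly 0. Of the 11687 genes, 80 were listed at 0 in 1 or 2 of the 3 H460-vec libraries, 50 of them in 2. Their highest FPKM had a median of 14.4 and reached 1791, and 18 of them reached 100 FPKM. Of the 80 genes, 70 were also listed at 0 in an ERT2-RUNX3 library. They made up 61 of the 71 genes past 2 at 8 h (85.9%) and 49 of the 85 at 16 h (57.6%). Of the other genes, 6 were higher (0.0517%) and 4 lower (0.0345%) past 2 at 8 h, and 29 higher (0.250%) and 7 lower (0.0603%) at 16 h. Past 1 they counted for less, 63 genes at 8 h (25%) and 54 at 16 h (14.6%).

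Of these 80 genes 5 had a symbol, and 4 of them carry the symbol of a short RNA. The identifiers with these 4 symbols span loci of kilobases in the study's gene list, whereas the annotated SNORD45A gene is 84 bases long, MIR4257 86 and MIR4258 91. Which part of a locus gave the reads is not known, and the values below belong to the identifiers. The identifier named SNORD45A, after a small nucleolar RNA that guides methylation of ribosomal RNA, was listed at 0, 371 and 0 FPKM at 0, 8 and 16 h in H460-vec. In ERT2-RUNX3 cells it was listed at 436, 0 and 0, so that its one value above 0 was in the starved library. That named MIR4257 was listed at 0, 304 and 0, and that named MIR4258 at 0, 188 and 0. The identifier named SNORA77, whose locus does not overlap the annotated position of that gene, was listed at 0, 14.1 and 0. The last 3 were at 0 in every ERT2-RUNX3 library. The libraries were made from polyadenylated RNA, which does not select for mature microRNAs or snoRNAs, and whether the short RNAs were expressed was not tested. RNU11, a spliceosomal RNA and the only named locus under 300 bases that passed the filter, was listed at 20.6, 16.8 and 20.9 FPKM in H460-vec and at 8.81, 0 and 4.53 in ERT2-RUNX3 cells. Another 12 of the 16 short noncoding RNA genes on the list were at 0 in all 3 H460-vec libraries.

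The share of genes past 1 depended on the level of the gene. Among 327 genes with a mean below 1 FPKM over the 3 libraries, 20.2% were past 1 at 8 h and 23.9% at 16 h. Among 1796 genes between 1 and 3 FPKM the shares were 4.01% and 6.29%, and among 3505 genes between 3 and 10 they were 1.48% and 2.77%. Among 3321 genes between 10 and 30 FPKM 0.873% and 1.42% were past 1. The comparison of the starved libraries gave 20.8%, 9.52%, 3.88% and 1.23% in the same 4 classes. From 30 to 100 FPKM the shares were 0.954% at 8 h, 1.11% at 16 h and 1.54% between the starved libraries. In every class below 100 FPKM the starved libraries of both lines thus differed in a larger share of genes than the 0 h and 8 h libraries of H460-vec. Their share was below that at 16 h under 1 FPKM and from 10 to 30 FPKM. From 100 FPKM on their share (1.53%) was below those at 8 h (1.76%) and 16 h (1.64%). Changes of genes of low FPKM below are values of single libraries.

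**Figure D1:**
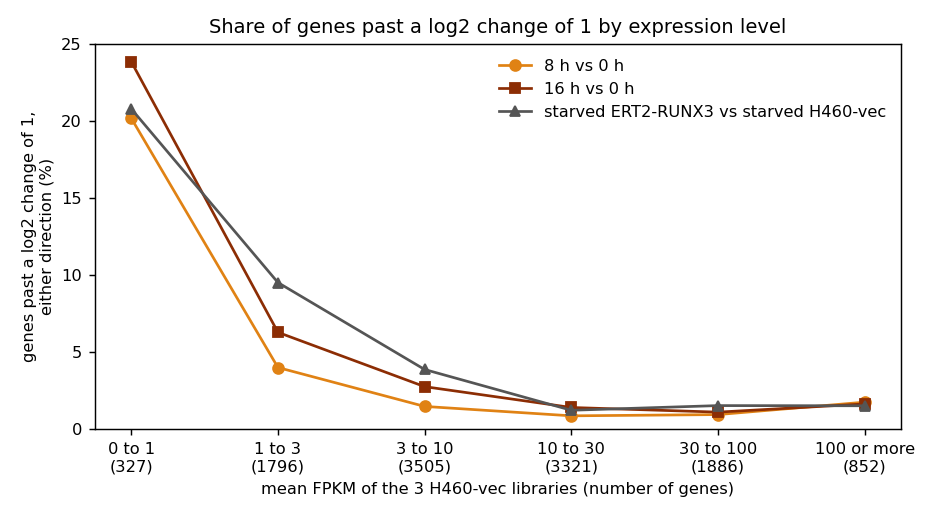
Share of genes past a log2 change of 1 in either direction (vertical axis, %) in 6 classes of mean FPKM in H460-vec (horizontal axis, with the number of genes), for 8 h, 16 h and the comparison of starved ERT2-RUNX3 with starved H460-vec. All 3 lines lie above 20% in the lowest class and below 2% from 10 FPKM on.

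Among the 580 genes with a symbol, 16 (2.76%) were higher and 3 (0.517%) lower past 1 at 8 h. At 16 h 12 (2.07%) were higher and 4 (0.690%) lower. From 8 to 16 h 5 (0.862%) were higher and 13 (2.24%) lower. With a pseudocount of 1 in place of 0.05, SAMD11, SMIM1, FBXO6, HSD17B7, IGFN1, SHISA4, PPFIA4, PFKFB2, SERTAD4, ADCK3 and HIST3H2BB were no longer past 1 at 8 h, nor were SAMD11, ACTL8, SESN2, ZNF326 and SERTAD4 at 16 h. The largest changes, ordered by role, follow with the FPKM in each library.

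The sterol and isoprenoid genes held the most abundant named gene past 1. FDPS (chr1:155278539-155290457, GRCh37), which makes farnesyl diphosphate for sterols and for lipid anchors on proteins, was listed at 180.3, 378 and 462 FPKM, changes of 1.07 and 1.36. HSD17B7 (chr1:162760492-162782613), an enzyme of late cholesterol synthesis, was listed at 13.5, 27.2 and 14.6 FPKM, a change of 1.01 at 8 h and of 0.12 at 16 h. Both genes were thus about as high above the starved library at 8 h, and only FDPS was still past 1 at 16 h. Both have near-identical pseudogene copies in the genome, and how the reads were shared among copies is not given in the sources used here. GGPS1, which makes the longer geranylgeranyl diphosphate, was listed at 17.2, 20.4 and 20.4 FPKM, a change of 0.25 at either time. The changes of SOAT1, SCP2 and DHDDS, also on the list, lay between -0.25 and 0.36 at 8 h and between -0.07 and 0.19 at 16 h. Of 8 members past the filter 2 were higher past 1 at 8 h, where 1.26% of all genes were, and 1 at 16 h, where 2.46% were, with a list median of 0.16 and 0.11.

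The sterol genes did not move alike in the 3 lines. In ERT2-RUNX3 cells FDPS was listed at 162, 394 and 349 FPKM and HSD17B7 at 10.8, 26.7 and 18.2, changes of 1.29 and 1.30 at 8 h. In ERT2-RUNX3-K94/171R cells FDPS was listed at 581, 377 and 161 FPKM and HSD17B7 at 30.2, 8.97 and 7.39, so that the changes were -0.62 and -1.74 at 8 h and -1.85 and -2.02 at 16 h. GGPS1 in this line was at 39.0, 30.1 and 22.2, a change of -0.81 at 16 h. The K94/171R table was normalized separately, and its levels are not comparable with those of H460-vec, whereas the changes are within the table. In both H460-vec and ERT2-RUNX3 cells the starved library was the lowest of the course for both genes, and in K94/171R cells it was the highest.

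The promoters of FDPS and HSD17B7 are shown because these genes had like changes at 8 h in H460-vec and ERT2-RUNX3 cells, though not at 16 h in H460-vec. The windows run from 250 bases before to 50 after the RefSeq start (GRCh38.p14) and were placed by an exact match at chr1:155278407-155278706 and chr1:162760242-162760541 on the plus strand of GRCh37. The RefSeq start of FDPS lies inside the gene position given above, which begins further upstream. Capitals mark CCAAT on either strand, the letters of the binding site of NF-Y, a factor common at sterol genes.
FDPS: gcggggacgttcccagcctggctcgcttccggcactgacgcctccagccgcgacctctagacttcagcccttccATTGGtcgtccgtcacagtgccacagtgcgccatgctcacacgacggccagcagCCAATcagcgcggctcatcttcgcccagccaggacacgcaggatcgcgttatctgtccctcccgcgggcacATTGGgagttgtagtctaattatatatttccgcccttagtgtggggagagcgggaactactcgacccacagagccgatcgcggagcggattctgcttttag
HSD17B7: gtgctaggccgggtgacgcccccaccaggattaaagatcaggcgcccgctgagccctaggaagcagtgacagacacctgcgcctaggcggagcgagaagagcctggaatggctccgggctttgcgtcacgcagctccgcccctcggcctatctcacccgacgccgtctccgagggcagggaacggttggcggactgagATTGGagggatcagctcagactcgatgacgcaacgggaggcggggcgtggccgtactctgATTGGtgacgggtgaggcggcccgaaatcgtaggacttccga
The letters occurred 3 times in the FDPS window and 2 times in that of HSD17B7, and 34.6% of all 35116 RefSeq promoters of this length hold them at least once. The letters TCACNCCAC, one form of the sterol response element, were in neither window and are in 1.13% of all promoters. Other forms of the element were not searched for. Neither window held TGACGTCA, CACGTG, TTTGGCGC, TTTCCCGC, TGATGNAAN or TGANTCA, which are in 1.85%, 7.26%, 0.652%, 1.63%, 3.61% and 7.71% of promoters. GGAATG was in the HSD17B7 window once and is in 14.0% of promoters. A match is no more than these letters, and binding was not measured here.

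**Figure D2:**
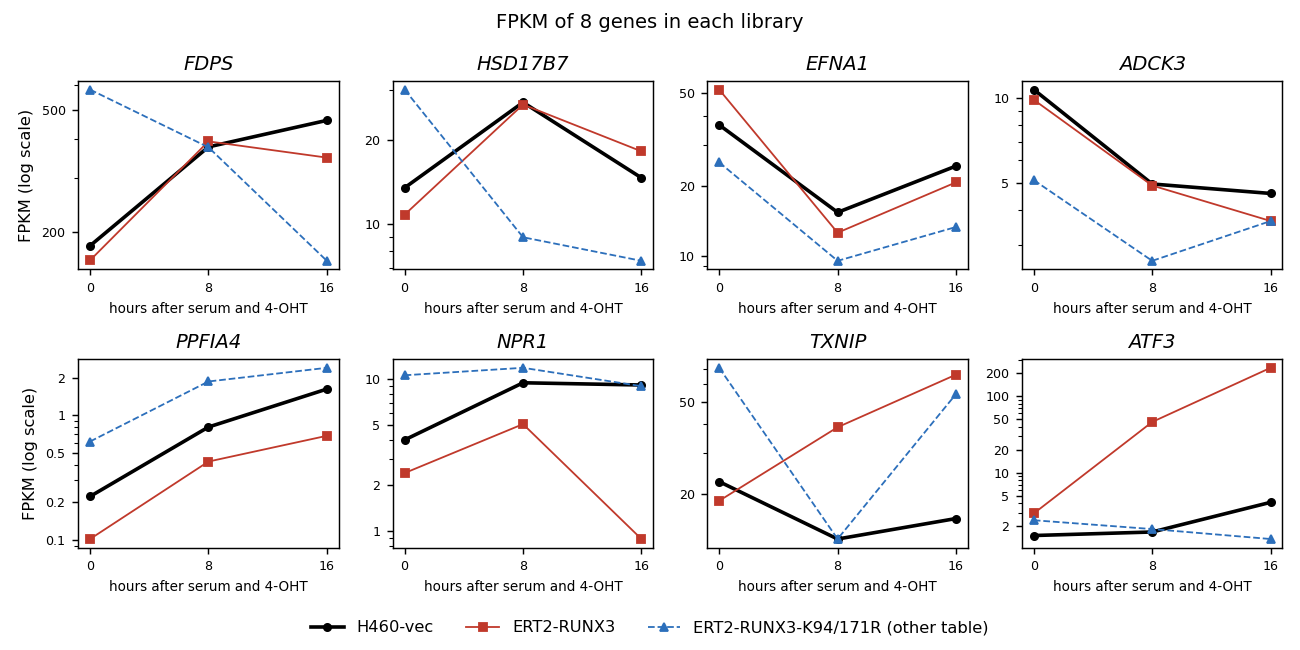
FPKM (vertical axis, log scale) at 0, 8 and 16 h after serum and 4-OHT (horizontal axis) of 8 genes in H460-vec, ERT2-RUNX3 and ERT2-RUNX3-K94/171R cells, 1 library per point, the last line from a separately normalized table. FDPS and HSD17B7 start lowest in H460-vec and ERT2-RUNX3 cells and highest in K94/171R cells, whereas EFNA1 is lowest at 8 h in all 3 lines.

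Genes lower after serum were few among those with a symbol. EFNA1 (chr1:155100352-155107375), the membrane-bound ephrin ligand of Eph receptors, was listed at 36.6, 15.4 and 24.4 FPKM, changes of -1.25 and -0.59. It was the one named gene lower past 1 at 8 h in all 3 lines, at 51.9, 12.6 and 20.7 FPKM in ERT2-RUNX3 cells (-2.04 at 8 h) and at 25.2, 9.52 and 13.3 in K94/171R cells (-1.40). In each line the 8 h library was the lowest of the 3. ADCK3 (chr1:227127987-227175245), also called COQ8A and needed for coenzyme Q synthesis, was listed at 10.7, 4.94 and 4.57 FPKM, changes of -1.11 and -1.22. In ERT2-RUNX3 cells its changes were -1.01 and -1.42 and in K94/171R cells -0.94 and -0.48. SERTAD4 was listed at 1.97, 0.674 and 0.853 FPKM, changes of -1.48 and -1.16, and was past 1 in the same direction at 16 h in all 3 lines, with -1.02 in K94/171R cells and from 0.748 FPKM to a library listed at 0 in ERT2-RUNX3 cells, a change whose size the pseudocount sets. Its level in K94/171R cells was 0.190 FPKM or less at 0 and 16 h.

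The other 9 of the 12 largest falls at 8 h were under the threshold. TXNIP, which inhibits thioredoxin and glucose uptake, was listed at 22.5, 12.7 and 15.6 FPKM, changes of -0.83 and -0.53. In K94/171R cells it was also lower at 8 h (70.5, 12.7 and 54.2 FPKM), and in ERT2-RUNX3 cells it was higher (18.6, 38.9 and 65.9 FPKM). IL6R, the interleukin 6 receptor, was listed at 6.96, 4.12 and 4.75 FPKM, and DISP1, which releases Hedgehog proteins, at 13.5, 8.66 and 12.1. SAMD13 was listed at 4.40, 2.40 and 3.98 FPKM and the antisense locus SLC2A1-AS1 at 1.40, 0.706 and 1.25. The locus named AMY2B,RNPC3 was at 6.05, 3.49 and 4.62, AGO4, an Argonaute protein, at 2.63, 1.56 and 3.04, ERMAP at 2.89, 1.68 and 1.43, and PAPPA2, a protease of IGF-binding proteins, at 1.98, 1.26 and 1.47. For 8 of these 9 genes the 8 h library was the lowest of the 3. The genes were chosen for a low 8 h value in this 1 library, so the count shows no pattern of the course. The libraries were made with a stranded kit, but whether counting used the strand is not given. Whether the value of SLC2A1-AS1 holds reads of its neighbour on the other strand is therefore not known.

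At 16 h the falls with a symbol were partly other genes. ZNF326, a zinc finger protein of RNA processing, was listed at 20.5, 15.8 and 9.95 FPKM, changes of -0.37 and -1.04, and in ERT2-RUNX3 cells its changes were -0.46 and -1.18. ACTL8 was listed at 1.00, 0.824 and 0.186 FPKM, a change of -2.16 at 16 h at a very low level. TUFT1 was at 10.1, 7.18 and 5.46 FPKM, NMNAT1, an enzyme of nuclear NAD synthesis, at 1.94, 1.54 and 0.972, LRRC8C, a subunit of volume-regulated anion channels, at 1.29, 0.951 and 0.712, and OCLM at 1.02, 1.96 and 0.529, with 16 h changes of -0.88, -0.96, -0.81 and -0.89.

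A receptor and a scaffold protein were among the rises. NPR1, the receptor for natriuretic peptides, was listed at 3.99, 9.47 and 9.16 FPKM, changes of 1.24 and 1.19. In ERT2-RUNX3 cells it was at 2.41, 5.06 and 0.888 and in K94/171R cells at 10.6, 11.9 and 8.998. PPFIA4, a liprin of synaptic scaffolds, was at 0.223, 0.803 and 1.62 FPKM, changes of 1.64 and 2.61. It was the one named gene higher past 1 at both times in all 3 lines, at 0.102, 0.425 and 0.683 FPKM in ERT2-RUNX3 cells (1.65 and 2.27) and at 0.615, 1.86 and 2.40 in K94/171R cells (1.52 and 1.88). With a pseudocount of 0.5 or 1 its 8 h change in H460-vec was 0.85 or 0.56, so that only the 16 h call remained in this line (1.55 or 1.10). In each line the order of the 3 libraries was the same.

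FBXO6, a ubiquitin ligase subunit that binds misfolded glycoproteins, was listed at 2.11, 4.53 and 5.33 FPKM, changes of 1.09 and 1.32, and in ERT2-RUNX3 cells at 3.23, 2.38 and 0.646. SHISA4 was at 3.56, 7.18 and 9.31 FPKM, changes of 1.00 and 1.37. PFKFB2, which sets the level of an activator of glycolysis, was at 2.04, 4.19 and 3.46 FPKM, changes of 1.02 and 0.75, and in ERT2-RUNX3 cells its changes were 2.26 and 3.48. C1orf54 was at 3.26, 3.08 and 13.3 FPKM, a change of 2.02 at 16 h that neither other line had (0.44 and 0.18). FMN2, a formin that builds actin filaments, was listed at 0.714, 0.527 and 1.20 FPKM, higher by 1.12 from 8 to 16 h. SAMD11 was at 0.380, 1.51 and 0.973 FPKM, changes of 1.86 and 1.25. IGFN1 was at 0.436, 1.28 and 0.215 FPKM, a change of 1.45 at 8 h, and was past 1 at 8 h in ERT2-RUNX3 (2.54) and K94/171R cells (1.72) too. HIST3H2BB, a histone gene whose relatives make RNA without a poly(A) tail, was at 0.218, 1.12 and 0.226 FPKM, and SMIM1, a red cell membrane protein, at 0, 0.139 and 1.18 FPKM.

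Across all genes, an overlap with ERT2-RUNX3 cells was counted, which have their own starved library. Of the 147 genes higher past 1 at 8 h in H460-vec, 47 (32.0%) were also higher past 1 in ERT2-RUNX3 cells, where 4.04% of all 11687 genes were. Another 17 of the 147 were lower past 1 there, where 3.66% of all genes were. Of the 105 lower genes 35 (33.3%) were lower there too, against 3.66% of all genes, and 16 were higher, against 4.04%. The opposite counts at 8 h were thus also above the share over all genes. Leaving out the genes listed at 0, 39 of 106 higher genes (36.8%) and 31 of 83 lower genes (37.3%) were past 1 in the same direction, against 3.91% and 3.56% of all such genes. At 16 h, when ERT2-RUNX3 cells had 17.5% of genes higher and 21.9% lower, 94 of 288 higher genes (32.6%) were higher and 87 were lower there. The 17.5% and 21.9% are over genes that passed the filter in H460-vec, and genes expressed in ERT2-RUNX3 cells alone were left out. Of 82 lower genes at 16 h 36 (43.9%) were lower and 15 higher. The counts in the same direction were thus well above the opposite ones at 8 h and for the lower genes at 16 h, and close to them for the higher genes at 16 h.

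The K94/171R table could be joined for 554 of the 580 genes with a symbol, 549 by Ensembl identifier and 5 by symbol. At 8 h 4 of 12 higher genes were also higher past 1 there, where 2.89% of the 554 genes were, and 1 of 3 lower genes was lower, where 1.99% were. At 16 h the counts were 3 of 12 higher, against 1.62%, and 1 of 4 lower, against 1.26%. In all 3 lines IGFN1 and PPFIA4 were higher and EFNA1 lower past 1 at 8 h, and PPFIA4 was higher and SERTAD4 lower at 16 h.

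Genes that serum is known to switch on had 1 member past 1. Of 10 serum-induced and immediate-early genes 8 passed the filter, 0 were past 1 at 8 h and 1 at 16 h, with medians of 0.17 and 0.19 against 0.0033 and 0.02 over all genes. Over all genes 2.16% were past 1 at 8 h and 3.17% at 16 h, so that 0 or 1 call in a list of this size, here and in the lists that follow, does not set its members apart from other genes. ATF3, a stress-responsive transcription factor, was listed at 1.52, 1.69 and 4.13 FPKM, a change of 1.41 at 16 h, and in ERT2-RUNX3 cells at 2.95, 46.2 and 235. CYR61, a matrix protein and YAP target, was at 16.4, 17.5 and 16.8 FPKM, and RGS2, which shortens G protein signals, at 319.6, 365 and 439. PLK3 was at 1.74, 3.32 and 2.81, IER5 at 13.6, 17.3 and 15.0, and TGFB2 at 11.9, 8.33 and 11.2. The libraries at 8 and 16 h are later than the first hour in which these genes are best known to respond, and earlier times were not analysed here.

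SESN2 and ATF3 were the members past 1 among genes of starvation and of the p53 and ATF4 programmes. SESN2, an inhibitor of mTORC1 signalling, was at 2.75, 4.11 and 6.01 FPKM, changes of 0.57 and 1.11, and was on all 3 of these lists. Of 6 starvation and quiescence genes 0 were past 1 at 8 h and SESN2 alone at 16 h. GADD45A, a growth arrest gene, was at 9.66, 10.2 and 10.7 FPKM, CDKN2C, an inhibitor of CDK4 and CDK6, at 19.3, 14.9 and 13.0, and PINK1, a kinase of damaged mitochondria, at 3.18, 3.15 and 4.53. All 6 p53 target genes past the filter lay above 0 at both times, with medians of 0.50 and 0.45, and 0 at 8 h and 2 at 16 h (ATF3 and SESN2) were past 1. Of 8 genes of amino acid synthesis, tRNA loading and ATF4, 2 were past 1 at 16 h, the same 2, and PHGDH, the first enzyme of serine synthesis, was at 68.7, 75.3 and 90.8 FPKM. In ERT2-RUNX3 cells the medians of the p53 and ATF4 lists at 16 h were 2.497 and 2.328. The line whose RUNX3 has lysine replaced by arginine differed at 8 h. There all 6 p53 target genes lay below 0 at 8 h, with a median of -0.39. At 16 h 4 of them lay above 0 and 2 below, with a median of 0.30. The medians of the ATF4 list in that line were -0.29 at 8 h and 0.06 at 16 h.

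Mitosis genes lay on both sides of their starved level, and most replication genes lay below it at 16 h. Of 12 mitosis genes all passed the filter, 7 lay above 0 and 5 below at either time and none was past 1 at 8 h or 16 h, with changes between -0.47 and 0.46 and medians of 0.0031 and 0.09. CDC20, an activator of the anaphase-promoting complex, was at 74.9, 87.2 and 71.6 FPKM, KIF2C, a mitotic kinesin, at 28.1, 28.1 and 31.2, CENPF, a kinetochore protein, at 69.9, 50.4 and 58.6, and CKS1B, a partner of cyclin-dependent kinases, at 293, 299 and 336. FAM72A and FAM72B, near-identical copies whose reads are uncertain, were also under the threshold. Of 10 DNA replication and repair genes none was past 1 in either direction, 6 lay below 0 at 8 h and 8 at 16 h, and the medians were -0.17 and -0.32. EXO1, an exonuclease of mismatch repair, was at 138, 106 and 84.9 FPKM, USP1 at 51.0, 39.4 and 33.2, CDC7, the kinase that fires replication origins, at 18.0, 13.8 and 13.4, and RAD54L, a recombination protein, at 6.71, 10.5 and 9.07. Of 4 histone genes past the filter HIST3H2BB alone was past 1, and H3F3A, a histone variant made outside S phase too, was at 614, 495 and 548 FPKM.

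The ribosomal protein and mitochondrial genes lay within 0.5 of no change, as did 87.6% of all genes at 8 h and 83.4% at 16 h. All 4 ribosomal protein genes lay between -0.24 and -0.02 at 8 h, with RPS27 at 5939.6, 5849.7 and 6636 FPKM and RPL11 at 2037, 1872 and 2125. Of 8 ribosome biogenesis genes none was past 1, 7 lay above 0 at 8 h and 7 below 0 at 16 h, with medians of 0.12 at 8 h and -0.30 at 16 h. MRTO4 was at 41.0, 44.9 and 30.03 FPKM and ZNF593 at 32.8, 48.5 and 41.0. In K94/171R cells all 8 of these genes were above 0 at 8 h, with a median of 0.60. All 12 mitochondrial genes lay between -0.33 and 0.36 at both times, and UQCRH, a subunit of complex III, was at 656, 666 and 833 FPKM. Of 6 nucleotide synthesis genes past the filter none was past 1, and GUK1, the guanylate kinase, was at 143, 165 and 197 FPKM.

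Of 9 NRF2 targets and detoxifying enzymes none was past 1, AKR1A1, an aldehyde reductase, was at 61.8, 74.0 and 106 FPKM, and PGD, of the pentose phosphate pathway, at 533, 515 and 546. Of 8 sugar metabolism and hypoxia genes PFKFB2 was higher and EFNA1 lower past 1 at 8 h and none at 16 h. None of 6 interferon-stimulated genes was past 1, and ISG15, a ubiquitin-like modifier, was at 5.28, 5.46 and 8.03 FPKM. Of 5 cytokine and inflammatory genes none was past 1, and PLA2G4A, a phospholipase that frees arachidonic acid, was at 29.5, 36.2 and 48.7 FPKM, while IL19, IL20 and IL24 were at 0 throughout. Of 10 adhesion, matrix and cytoskeleton genes none was past 1, and AGRN and LMNA, a matrix and a nuclear lamina protein, were at 21.0, 25.5 and 29.2 and at 316, 365 and 379 FPKM. With libraries scaled to the same FPKM sum, the 16 h medians of the mitosis, nucleotide synthesis, ribosomal protein and mitochondrial lists changed sign to -0.02, -0.0069, -0.06 and -0.07, and the 8 h median of the cytokine list from -0.0064 to 0.0052.

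Among genes without a symbol and never listed at 0 in H460-vec, XLOC_001350 was at 18.4, 99.8 and 45.0 FPKM and XLOC_013581 at 14.2, 74.5 and 41.5, changes of 2.43 and 2.39 at 8 h, the largest rises of this kind. In ERT2-RUNX3 cells they were at 19.5, 61.5 and 7.17 and at 17.3, 54.9 and 2.197 FPKM, so that both were highest at 8 h in both lines. XLOC_018259 was at 2.06, 0.220 and 0.267 FPKM and XLOC_005628 at 1.21, 0.129 and 0.627, changes of -2.97 and -2.81 at 8 h. The files do not pair these identifiers with genes.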

How the data were processed

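RNA-seq libraries of 3 H460 lines at 0, 8 and 16 h (1 library per condition) were analysed from 2 tables of FPKM deposited by the authors, made from reads with Cutadapt (trimming), STAR (mapping to hg19) and Cuffdiff of Cufflinks (expression). The submitters' processing notes give STAR 2.5.0 and Cuffdiff 2.2.1. The gene annotation and the use of strand in counting are not given in the sources used here. FPKM hold no read counts, so the depth per library is unknown, and the tables were normalized separately. All columns of per-sample values were used.

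Changes were computed within a line with a pseudocount of 0.05, for genes with FPKM of at least 1 in the highest H460-vec library. The pseudocount shrinks the ratios of genes at low FPKM and sets the size of changes against a library listed at 0. It does not make low values steadier. Thresholds were 1 and, as in the study, 2 on the log2 scale. Symbols came from the study's supplementary gene list, and positions from GENCODE on GRCh37. Named are the 12 largest rises and falls at 8 h and 10 at 16 h, the 5 largest from 8 to 16 h, and described members of 23 lists. Loci under 300 bases are given apart, and some genes the rule names are not reported here. The members and lists were chosen with earlier results of these data known. The scripts (Python 3.11.15, numpy 2.4.6, pandas 2.3.3, matplotlib 3.10.9) were tested on simulated data. No test was run, since H460-vec had 1 library per time.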

Additional observations from a re-analysis of the deposited data

Results flagged for a closer look

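Several named genes moved past 1 in H460-vec and past 1 the other way in a second line. Each value rests on 1 library per time, and none of these differences was tested. At 16 h, FBXO6 changed by 1.32 in H460-vec and by -2.24 in ERT2-RUNX3 cells, and NPR1 by 1.19 and -1.39. SMIM1 at 16 h was at 4.62 in H460-vec, from a starved library listed at 0. In ERT2-RUNX3 cells it was at -2.77, from 0.291 FPKM to a library listed at 0. In ERT2-RUNX3-K94/171R cells it was at 4.66, again from a starved library listed at 0. The pseudocount sets the size of each of these SMIM1 changes. FDPS at 16 h changed by 1.36 in H460-vec and by -1.85 in ERT2-RUNX3-K94/171R cells. At 8 h, SNORD45A was at 12.86 in H460-vec and at -13.09 in ERT2-RUNX3 cells, each against or from a library listed at 0. HIST3H2BB at 8 h was at 2.12 in H460-vec, -2.61 in ERT2-RUNX3 and -1.40 in ERT2-RUNX3-K94/171R cells, with no library of H460-vec above 1.12 FPKM.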

How the results depend on the processing

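No paired analysis was possible because H460-vec had 1 library per time, and no replicate could be left out. A fit that takes the lines as replicates would average over lines and was not run. Leaving out the genes listed at 0 was chosen after seeing the data. With a pseudocount of 1, 71 genes were higher and 35 lower past 1 at 8 h, against 138 higher and 35 lower at 16 h. Past 2, 15 were lower at 8 h and 30 higher at 16 h. With a pseudocount of 0.5, 92 were higher and 49 lower past 1 at 8 h and 50 lower at 16 h, and past 2, 16 were lower at 8 h and 37 higher at 16 h. With no FPKM filter, past 1 there were 640 and 593 at 8 h and 832 and 625 at 16 h, and past 2, 123 and 109 at 8 h and 157 and 109 at 16 h. With a mean FPKM of at least 1, 65 were lower past 1 at 8 h and 54 at 16 h. With FPKM of at least 5, 81 were higher and 33 lower past 1 at 8 h and 144 and 33 at 16 h, and past 2, 14 were lower at 8 h and 33 higher at 16 h. Without genes listed at 0, 11607 genes were counted, and past 2 there were 6 higher and 4 lower at 8 h and 29 and 7 at 16 h. Fewer genes enter under the stricter filters and more without one, and a larger pseudocount shrinks the changes of low genes by construction.

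With a pseudocount of 1, 24 of 71 higher genes (33.8%) at 8 h were also past 1 in the same direction in ERT2-RUNX3 cells, against 2.73% of all genes. Of 35 lower genes 9 (25.7%) were, against 1.41%. At 16 h 55 of 138 higher (39.9%) and 13 of 35 lower genes (37.1%) were, against 14.7% and 15.9%. With FPKM of at least 5, 10 of 33 lower genes (30.3%) at 8 h were, against 2.31%. At 16 h 56 of 144 higher (38.9%) and 15 of 33 lower genes (45.5%) were, against 16.1% and 20.5%. In ERT2-RUNX3-K94/171R cells a pseudocount of 1 left 0 of 2 higher genes at 8 h and 0 of 1 lower gene at 16 h, and FPKM of at least 5 left 0 of 6 higher genes at 8 h, and 0 of 6 higher and 0 of 2 lower genes at 16 h. Scaling to the same FPKM sum and centring on the median kept these counts of genes past 1 and 2 within 1.5 times of those reported. Of 145 genes with a symbol on a list or named, a pseudocount of 1 took 11 below the threshold at 8 h and 6 at 16 h, HSD17B7, FBXO6, SHISA4, PPFIA4, ADCK3 and SERTAD4 among those at 8 h, and none changed sign past the threshold under any setting. Scaling to the same sum brought NMNAT1 and ERMAP below -1 at 16 h, and centring on the median did so for ERMAP and took SHISA4 below 1 at 8 h. Depth is unknown, so what a low FPKM can show is limited and cannot be stated as an interval.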
